A study of Mus musculus with 8 samples.

Results

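The pentose phosphate pathway and the enzymes that supply NADPH were followed here as a set of 10 genes, among them Pgls, Pgd, Rpia, Rpe, Taldo1, Tkt, Me1, Idh1 and Nnt, picked by symbol in the annotation of an Affymetrix whole-transcript array. For each gene the probe set that carries its symbol alone was read, and the brightest where there were several. This gave values for 8 of the 10 genes, out of 22180 genes tested in the series. Tkt, which encodes transketolase, shared its probe set with the microRNA gene Mir3076, so no value is given for it.

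The cells were melanocytes, the pigment cells of the skin, taken from mouse pups 1 to 5 days old and kept in culture for 22 days, with female as the sex label on every sample. There were 4 groups of 2 arrays each: KO UVA, KO sham, WT UVA and WT sham. KO stands for autophagy deficient cells with floxed Atg7 alleles and Cre under the tyrosinase promoter (Atg7 f/f Tyr::Cre), and WT for autophagy competent cells with the floxed alleles alone (Atg7 f/f). Atg7 encodes an enzyme required to build the autophagosome. The tyrosinase promoter drives Cre in the pigment cell lineage, so other cell types in a KO culture may keep the gene. UVA groups received 20 J/cm2 of UVA-1, the long-wave end of the ultraviolet A band, and RNA was collected 6 h after UVA or sham treatment. The duplicates of every group are numbered 1 and 2.

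The pathway draws glucose 6-phosphate away from glycolysis. Its oxidative branch, which includes the lactonase PGLS and the dehydrogenase PGD, turns glucose 6-phosphate into ribulose 5-phosphate and reduces NADP+ to NADPH. In its non-oxidative branch RPIA, RPE, transketolase and TALDO1 interconvert sugar phosphates and return carbon to glycolysis. NADPH feeds glutathione reductase and thioredoxin reductase, which keep antioxidant thiols reduced, and ultraviolet A is known to generate reactive oxygen species in skin cells. The transcription factor NRF2 is known to activate several of these genes, among them Pgd, Taldo1, Tkt and Me1.

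All 12 melanocyte markers were measured on every array, and Tyrp1, Dct, Pmel and Mlana read 9074 to 18652 on the linear intensity scale. Arrays of number 1 and number 2 were split by the leading principal component, which carried 77.7% of the variance. Fibroblast markers, 12 of 12 measured, summed to 49144 and 51589 in KO (UVA, sham) and to 49218 and 50283 in WT in number 1. In number 2 they summed to 20292 and 21645 in KO and to 8997 and 10042 in WT. Keratinocyte, mast cell, endothelial and skeletal muscle markers summed to at most 1647 on any array. Schwann cell markers, 6 of 8 measured, summed to 6744 to 9646 on UVA arrays and 6511 to 10467 on sham arrays, and 1 of them, Ngfr, was lower after UVA (-0.52, SE 0.06; limma adjusted p = 0.0222 with genotype and replicate number as a block). Of the melanocyte markers Mc1r was lower after UVA in that fit (-0.30, SE 0.04, adjusted p = 0.0347). Myeloid markers in number 2 summed to 2363 and 2594 in KO (UVA, sham), against 1236 and 1299 in WT. In number 1 they summed to 1159 and 1159 in KO and to 1119 and 976 in WT. Lower expression per cell and fewer cells of a type cannot be told apart in such bulk RNA.

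After UVA, Taldo1 and Pgd read higher in both genotypes, and the other members showed no common movement. Taldo1 (transaldolase 1), which moves a dihydroxyacetone unit between sugar phosphates, read 1661 and 2037 in KO UVA, 1219 and 1564 in KO sham, 1459 and 1691 in WT UVA, and 976 and 1187 in WT sham. Here and below the array of number 1 is given before that of number 2. The UVA array was the higher in all 4 pairs of 1 genotype and 1 number, and within each number the UVA arrays did not overlap the sham arrays. Across numbers they did, since WT UVA of number 1 (1459) lay below KO sham of number 2 (1564). UVA over sham came to 1.36-fold and 1.302-fold in the KO pairs and to 1.49-fold and 1.42-fold in the WT pairs.

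Pgd (6-phosphogluconate dehydrogenase), which forms NADPH in the oxidative branch, read 7346 and 7911 in KO UVA, 6053 and 6926 in KO sham, 6667 and 6937 in WT UVA, and 5346 and 5078 in WT sham. The UVA array was again the higher in all 4 pairs, by 1.21-fold and 1.14-fold in KO and by 1.25-fold and 1.37-fold in WT. Within each number the treatments did not overlap, by a small margin in number 2 (6937 in WT UVA, 6926 in KO sham). Across numbers they overlapped, since WT UVA of number 1 (6667) lay below KO sham of number 2 (6926).

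Averaged over genotypes, UVA minus sham was 0.48 log2 units for Taldo1 (SE 0.05, 95% interval 0.38 to 0.58, or 1.39-fold) and 0.31 for Pgd (SE 0.04, interval 0.23 to 0.39, or 1.24-fold). These errors and intervals come from limma with each combination of genotype and replicate number as a block, so that each UVA array is compared with the sham array of its pair. In that fit Taldo1 (adjusted p = 0.00727) and Pgd (adjusted p = 0.0222) passed at an adjusted p under 0.05. Thus 2 of 8 measured members passed, against 97 of all 22180 genes tested, which is 0.437% (53 higher and 44 lower). In limma with the replicate number alone as a block 0 members passed, with 2 members and 1451 of all genes at an unadjusted p under 0.05 (adjusted p = 0.150 for Taldo1 and 0.470 for Pgd). There 3 of all genes passed, or 0.0135%. In limma without a block 0 genes passed (adjusted p = 1 for Taldo1 and Pgd), with 401 genes and 2 members at an unadjusted p under 0.05.

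The calls of the fit by pairs, averaged over genotypes, also ended when both arrays of any 1 genotype and number were left out. Then 0 genes passed, on 1 residual degree of freedom, and the limma adjusted p of Taldo1 and Pgd was 0.527 to 0.694. The differences stayed at 0.46 to 0.50 for Taldo1 and 0.28 to 0.34 for Pgd. The summed fibroblast markers were lower on the UVA array in all 4 pairs, by the values given above, and their part in these results was not tested.

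**Figure D1:**
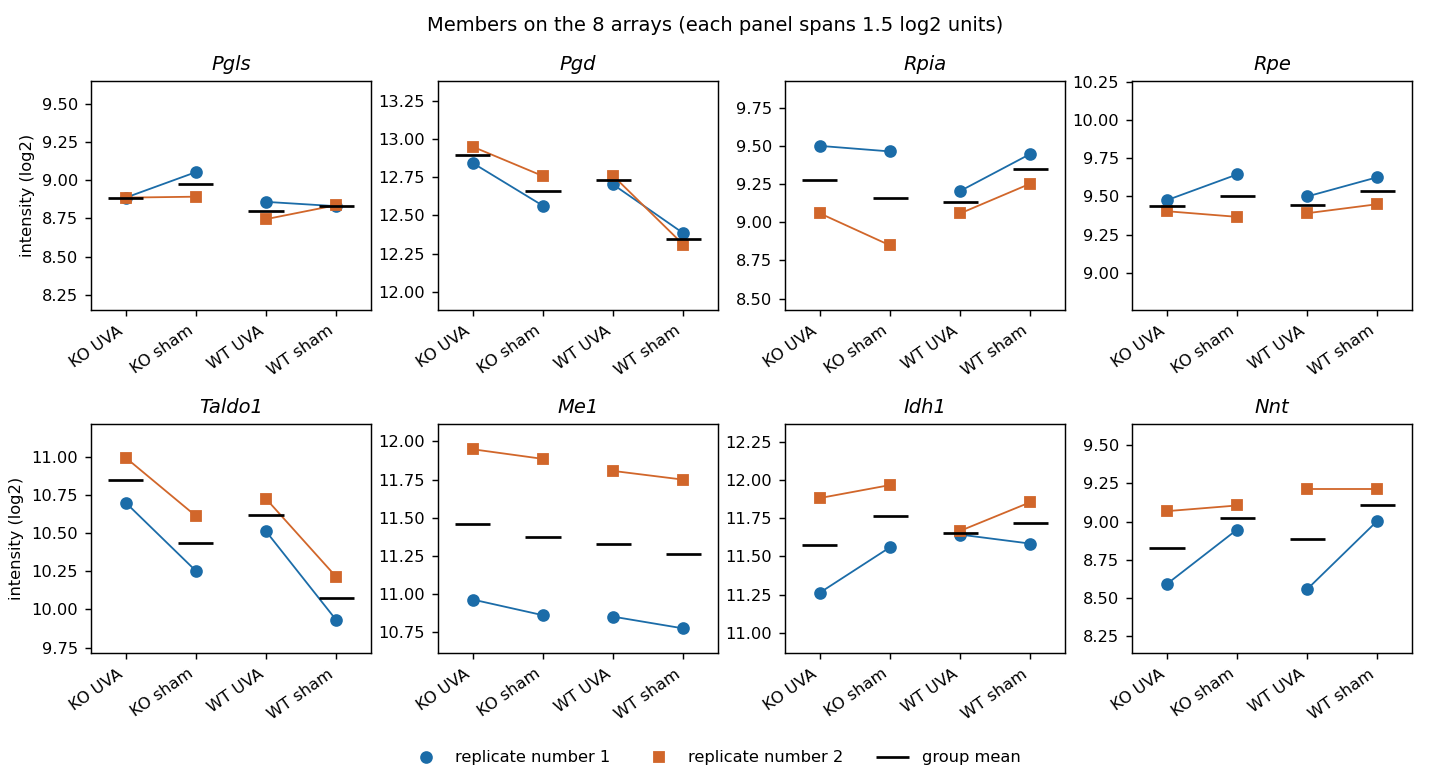
Intensity of the 8 measured members (log2, vertical axis) in KO UVA, KO sham, WT UVA and WT sham, with circles for number 1, squares for number 2, lines joining the UVA and sham arrays of a genotype and number, and bars for the group mean. Taldo1 and Pgd are higher after UVA in all 4 pairs, and the arrays of Me1 split by number, at 3444 to 3953 in number 2 and 1754 to 1999 in number 1 on the linear scale.

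In WT alone, UVA minus sham was 0.55 for Taldo1 (SE 0.06; limma adjusted p = 0.0433 with the block on pairs) and 0.38 for Pgd (SE 0.05, adjusted p = 0.0720). Of all genes 12 passed there, or 0.0541%, and Taldo1 was the 1 member among them. With the replicate number alone as a block 1 of all genes passed (0.00451%), and it was no member (limma adjusted p = 0.594 for Taldo1). In KO alone the differences were 0.41 for Taldo1 (SE 0.06; limma adjusted p = 0.168 with the block on pairs) and 0.24 for Pgd (SE 0.05, adjusted p = 0.329). With either block 2 of all genes passed in KO, or 0.00902%, and in limma 0 members did. With the block on pairs 3 members and 1883 of all genes had an unadjusted p under 0.05; blocking on the replicate number alone gave 2 members and 891 of all genes.

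That Taldo1 passed in WT and not in KO does not show that the genotypes differ. The response in KO minus that in WT was -0.13 for Taldo1 (95% interval -0.34 to 0.08) and -0.15 for Pgd (-0.31 to 0.02), from the fit by pairs. In limma the interaction passed for 0 genes in each of the 3 fits, while an unadjusted p under 0.05 was reached by 294 genes with no block, 458 with the replicate number and 766 with the block on pairs.

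Pgd and Taldo1 were the 2 members that passed after UVA, and the 250 bases before their annotated starts were read, along with those of Gclm, the gene whose profile over the 8 arrays lay nearest to that of Taldo1. The sequences are from RefSeq on GRCm38.p6 and run 5′ to 3′ on the gene's strand up to the base before the start. They lie at chr4:149166706-149166955 on the minus strand for Pgd (1 of its 2 annotated starts), chr7:141391910-141392159 on the plus strand for Taldo1 and chr3:122245307-122245556 on the plus strand for Gclm. Capitals mark matches on either strand to 3 motifs: the core of the antioxidant response element that NRF2 binds (TGACNNNGC), the GC box (GGGCGG) and the CCAAT box (CCAAT).
Pgd: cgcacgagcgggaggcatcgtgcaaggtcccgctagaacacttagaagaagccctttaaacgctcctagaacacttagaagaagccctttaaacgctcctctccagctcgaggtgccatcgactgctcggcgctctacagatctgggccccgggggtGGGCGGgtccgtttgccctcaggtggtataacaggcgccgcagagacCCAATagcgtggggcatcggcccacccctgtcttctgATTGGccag
Taldo1: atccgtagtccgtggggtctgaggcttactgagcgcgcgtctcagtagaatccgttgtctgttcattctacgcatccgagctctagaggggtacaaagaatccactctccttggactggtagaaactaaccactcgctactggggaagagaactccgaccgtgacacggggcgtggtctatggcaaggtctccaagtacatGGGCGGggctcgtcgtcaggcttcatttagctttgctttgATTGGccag
Gclm: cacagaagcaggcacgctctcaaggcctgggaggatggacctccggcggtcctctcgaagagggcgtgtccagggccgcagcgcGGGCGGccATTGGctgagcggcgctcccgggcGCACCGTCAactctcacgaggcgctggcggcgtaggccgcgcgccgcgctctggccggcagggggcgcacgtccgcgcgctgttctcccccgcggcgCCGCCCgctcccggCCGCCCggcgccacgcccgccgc
The windows of Pgd and Taldo1 end in the same 11 bases, tgATTGGccag, which hold a reversed CCAAT box that begins 9 bases before the start. These are the only 2 windows of the 32851 in the table that end so, and 24 windows (0.073%) have the reversed box at that place. The 11 bases were found by comparing these 2 windows, so their absence from the others is no evidence of a shared function. Anywhere in the 250 bases and on either strand, 33.85% of all windows hold a CCAAT box. Both windows also hold a GC box, as do 32.7% of all windows. The antioxidant response element core was in the windows of 0 of the 7 measured members that the table holds, and 11.5% of all genes have it in some window. It was found 134 bases before the start of Gclm. These matches describe letters in windows of 250 bases and say nothing of sites further away.

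Pgls (6-phosphogluconolactonase), the enzyme just before PGD in the oxidative branch, read 473 and 473 in KO UVA, 531 and 475 in KO sham, 464 and 429 in WT UVA, and 455 and 457 in WT sham. UVA minus sham was -0.06 (SE 0.06), with signs that differed among the pairs and no call in the 3 limma fits (adjusted p = 0.781 to 1).

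In the non-oxidative branch, Rpia (ribose 5-phosphate isomerase A), which makes ribose 5-phosphate for nucleotide synthesis, read 724 and 533 in KO UVA, 706 and 461 in KO sham, 590 and 533 in WT UVA, and 698 and 610 in WT sham. Its UVA minus sham difference was positive in both KO pairs (0.04 and 0.21) and negative in both WT pairs (-0.24 and -0.19). Rpe (ribulose 5-phosphate 3-epimerase), which makes xylulose 5-phosphate, read 712 and 677 in KO UVA, 800 and 660 in KO sham, 724 and 671 in WT UVA, and 790 and 699 in WT sham. Rpe was lower after UVA in 3 of 4 pairs (averaged difference -0.08, SE 0.06) and did not pass in limma (adjusted p = 0.657 with the block on pairs).

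Outside the pathway, Me1 (malic enzyme 1), which makes NADPH from malate in the cytosol, read 1999 and 3953 in KO UVA, 1862 and 3784 in KO sham, 1850 and 3583 in WT UVA, and 1754 and 3444 in WT sham. UVA minus sham was 0.07 (SE 0.04), or 1.05-fold, positive in all 4 pairs and not called by limma (adjusted p = 0.488 with the block on pairs). Taldo1, Pgd and Me1 were thus the 3 of 8 members above sham in all 4 pairs, against 10.6% of all genes. No member was below sham in all 4 pairs, against 9.08% of all genes.

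Idh1 (isocitrate dehydrogenase 1), the cytosolic NADP+-dependent form, read 2458 and 3775 in KO UVA, 3020 and 4004 in KO sham, 3198 and 3253 in WT UVA, and 3070 and 3704 in WT sham. It was lower after UVA in 3 of 4 pairs (averaged difference -0.13, SE 0.05; limma adjusted p = 0.372 with the block on pairs). Nnt (nicotinamide nucleotide transhydrogenase), which makes mitochondrial NADPH from NADH, read 386 and 537 in KO UVA, 494 and 551 in KO sham, 377 and 595 in WT UVA, and 514 and 595 in WT sham. UVA minus sham of Nnt was -0.36 in KO and -0.45 in WT in number 1, and -0.04 and 0.0 in number 2. The averaged difference of Nnt, -0.21 (SE 0.09), did not pass (limma adjusted p = 0.371 with the block on pairs). Over the 8 members the median UVA minus sham difference was -0.05, beside 0.002 over all genes tested.

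**Figure D2:**
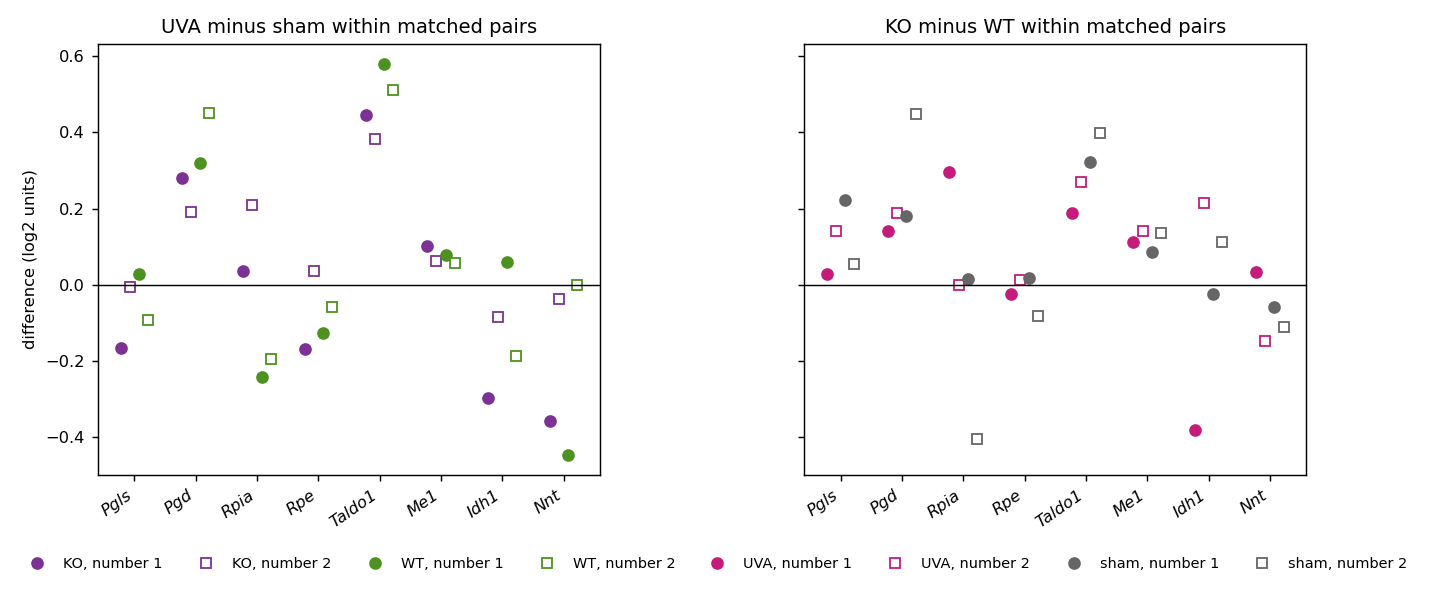
Difference in log2 intensity (vertical axis) for each measured member, as UVA minus sham within each genotype and number (left) and as KO minus WT within each treatment and number (right); each point is 1 pair of arrays, filled for number 1 and open for number 2. Taldo1, Pgd and Me1 lie above 0 in all 4 pairs of both panels, and Pgls in those of the right panel.

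Between genotypes, Taldo1 and Pgd read higher in KO in all 4 pairs matched by treatment and number, and neither passed the test over all genes. Taldo1 was 1.14-fold and 1.20-fold higher after UVA and 1.25-fold and 1.32-fold higher after sham. Pgd was 1.10-fold and 1.14-fold higher after UVA and 1.13-fold and 1.36-fold higher after sham. Averaged over treatments, KO minus WT was 0.29 for Taldo1 (SE 0.05, 95% interval 0.16 to 0.42; limma adjusted p = 0.308 with the replicate number as a block). For Pgd it was 0.24 (SE 0.05, interval 0.12 to 0.36; adjusted p = 0.367). These errors and intervals count the sham and UVA arrays of a genotype and number as separate samples. Without a block the interval was -0.05 to 0.64 for Taldo1 (SE 0.14) and 0.07 to 0.41 for Pgd (SE 0.07). In number 1, where the summed fibroblast markers of KO and WT lay within 49144 to 51589, KO minus WT was 0.25 for Taldo1 and 0.16 for Pgd. In number 2, where they were higher in KO (20292 and 21645, against 8997 and 10042 in WT), it was 0.33 and 0.32. Melanocyte markers of number 2 summed to 93327 and 92129 in KO (UVA, sham) and to 106487 and 108983 in WT. The part of cell composition in the values of number 2 was not tested.

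Me1 was also higher in KO in all 4 pairs, by 1.06-fold to 1.10-fold (averaged difference 0.12, SE 0.05; limma adjusted p = 0.548 with the replicate number as a block). Pgls was the 1 of 8 members whose arrays did not overlap between genotypes, at 473 to 531 in KO and 429 to 464 in WT, and 0.866% of all genes had all 4 KO arrays above all 4 WT arrays. The difference of Pgls did not pass (averaged difference 0.11, SE 0.07; limma adjusted p = 0.653 with that block). A second, dimmer probe set of Pgls read 166 to 180 in KO and 156 to 198 in WT, with an averaged difference of -0.08, so the probe sets of Pgls disagree in sign. Taldo1, Pgd, Me1 and Pgls made 4 of 8 members above WT in all 4 pairs, against 7.65% of all genes. No member was below WT in all 4 pairs, against 7.78% of all genes.

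Rpia, Rpe and Idh1 each had an averaged KO minus WT difference of -0.02 and Nnt one of -0.07, with signs that differed among the pairs. Idh1 after UVA was 0.769 of the WT level in number 1 and 1.16 times it in number 2. In limma 0 members passed between genotypes; an unadjusted p under 0.05 was found for 3 members and 1970 of all genes in the fit blocked on the replicate number, and for 1 member and 517 of all genes in the other. Among all genes 7 passed with that block, or 0.0316%, and 0 when any single array was then left out. The fit without a block passed 0. With the sham and UVA arrays of each genotype and number averaged first, the limma adjusted p of Taldo1 and Pgd was 1 without the block and 0.996 with it. Over the 8 members the median KO minus WT difference was 0.05, beside -0.01 over all genes tested. It was -0.0018 with the mean over all probe sets of a gene.

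Separately by treatment, KO minus WT of Taldo1 was 0.23 after UVA and 0.36 after sham, and that of Pgd 0.16 and 0.31. In limma 0 genes passed in either comparison, blocked or not. An unadjusted p under 0.05 was reached by 927 genes after UVA and 1230 after sham in the blocked fit, and by 352 and 446 in the other. The WT sham arrays enter both the genotype comparison after sham and the UVA comparison in WT, so a gene's differences in them are not independent.

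The arrays of the replicate numbers did not overlap for 4 of 8 members, and for 32.1% of all genes. Me1 read 3444 to 3953 on the 4 arrays of number 2 and 1754 to 1999 on those of number 1, a ratio of 1.98, and 5.25% of all genes were at least as far apart. Nnt (ratio 1.298), Idh1 (1.26) and Rpe (0.896) were the other members without overlap between number 2 and number 1. Melanocyte markers summed to 92129 to 108983 in number 2 and 58183 to 62129 in number 1, and fibroblast markers were lower in number 2. The part of cell composition in the levels of these members was not tested.

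The other genes of the pathway and its neighbours were read from 7 lists. Of the oxidative branch, H6pd, the hexose 6-phosphate dehydrogenase of the endoplasmic reticulum, differed by -0.15 between UVA and sham, negative in all 4 pairs, and by 0.30 between KO and WT. KO minus WT of H6pd was 0.56 and 0.65 in number 2 (UVA, sham), where fibroblast markers were higher in KO, and -0.07 and 0.08 in number 1. Of 4 other genes of the non-oxidative branch 3 were measured, with UVA minus sham differences of 0.07 for Tktl1, 0.15 for Tktl2 and -0.12 for the sedoheptulose kinase gene Shpk. Their KO minus WT differences were 0.02, -0.04 and -0.135. In limma 0 of these 4 genes passed in either averaged comparison (adjusted p = 0.269 or more for UVA with the block on pairs).

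Among 9 measured genes that use ribose 5-phosphate, 3 had a positive UVA minus sham and 2 a positive KO minus WT difference, and 0 passed in limma. Prps1 and Dera were the highest between genotypes (0.22 and 0.03), and Ppat and Prpsap2 the lowest (-0.17 and -0.13). Prps1 makes phosphoribosyl pyrophosphate from ribose 5-phosphate, and Ppat starts purine synthesis from that product. For the supply and diversion of glucose 6-phosphate, 16 of 19 genes were measured, 10 of them positive after UVA and 5 between genotypes, and 0 passed. Slc2a1, which encodes the glucose transporter GLUT1, differed by 0.14 between UVA and sham and by 0.115 between KO and WT, positive in all 4 pairs of each. Pfkl and Pfkp, phosphofructokinase subunits of glycolysis, differed by 0.13 and -0.20 between KO and WT, and Slc37a4, the glucose 6-phosphate translocase, by -0.21. Pfkl was positive in all 4 pairs. In number 2 (UVA, sham) Pfkp gave -0.40 and -0.42 and Slc37a4 -0.41 and -0.32. In number 1 Pfkp gave 0.08 and -0.08 and Slc37a4 -0.17 and 0.06.

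Of 16 other genes of NADPH supply, 4 had a positive UVA minus sham difference, 7 were below sham in all 4 pairs and 0 passed in limma (median -0.09). Between genotypes 5 of the 16 were positive (median -0.05). Mitochondrial Idh2 (-0.31) and Mthfd1l of the folate cycle (-0.28) were lowest in KO minus WT. In number 2 (UVA, sham) Idh2 gave -0.50 and -0.59 and Mthfd1l -0.39 and -0.56, against 0.04 and -0.18 and -0.07 and -0.11 in number 1. Aldh1l2 (0.20) and Mthfd2l (0.14), also of the mitochondrial folate cycle, were highest. The UVA minus sham differences were 0.03 for Idh2, -0.18 for Mthfd1l, -0.12 for Aldh1l2 and 0.09 for Mthfd2l.

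Of 19 measured genes that use NADPH, 5 rose after UVA and 0 fell in limma with the block on pairs. Nqo1, a quinone reductase, was higher by 0.62 (adjusted p = 0.00383) and Gsr, glutathione reductase, by 0.51 (adjusted p = 0.00788). Txnrd1, thioredoxin reductase 1, was higher by 0.44 (adjusted p = 0.0222), Blvrb, biliverdin reductase B, by 0.44 (adjusted p = 0.0296) and Cbr3, a carbonyl reductase, by 0.48 (adjusted p = 0.0481). The median of the list was -0.004, with 9 of 19 positive. In limma with the replicate number alone as a block 0 of them passed after UVA (adjusted p = 0.293 to 0.675 for these 5). Nqo1 was the 1 gene of the 7 lists that passed between genotypes, at 1.13 log2 units or 2.20-fold higher in KO (SE 0.09, limma adjusted p = 0.0189 with the replicate number as a block). Without a block Nqo1 did not pass. The blocked fit counts the sham and UVA arrays of a genotype and number as separate samples. Mical2, a monooxygenase that oxidizes actin, was at 0.54, with differences of 1.39 and 1.04 in number 2 (UVA, sham) and -0.19 and -0.09 in number 1. The sterol synthesis genes Sqle and Dhcr7 were lowest, at -0.24 and -0.16. In number 2 (UVA, sham) Sqle gave -0.32 and -0.48 and Dhcr7 -0.59 and -0.44. In number 1 Sqle gave -0.06 and -0.09, and Dhcr7 had the opposite sign, at 0.14 and 0.23.

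Of the NRF2 axis 11 of 11 genes were measured, all with a positive UVA minus sham difference and 10 of them in all 4 pairs (median 0.28). With the block on pairs 5 rose in limma. Slc7a11, the cystine transporter, was higher by 1.40 (adjusted p = 0.00788), and Hmox1, heme oxygenase 1, by 0.44 (adjusted p = 0.00649). Gclm and Gclc, subunits of the enzyme that starts glutathione synthesis, were higher by 0.55 (adjusted p = 0.0015) and 0.49 (adjusted p = 0.00649). Sqstm1, which encodes p62, a receptor that binds the NRF2 inhibitor KEAP1, was higher by 0.23 (adjusted p = 0.0233). Gclm also passed with the replicate number alone as a block (limma adjusted p = 0.0338). Nfe2l2, which encodes NRF2, differed by 0.13 after UVA (limma adjusted p = 0.163 with the block on pairs) and by -0.12 between KO and WT. Mafk, a partner of NRF2, differed by 0.10 and -0.10 in the same comparisons. Between genotypes 8 of the 11 genes were positive (median 0.13). Of these 5 were above WT in all 4 pairs, and 7.65% of all genes were. Slc7a11 (0.38) and Gclm (0.27) were highest, Nfe2l2 and Mafk were lowest, and in limma 0 passed.

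**Figure D3:**
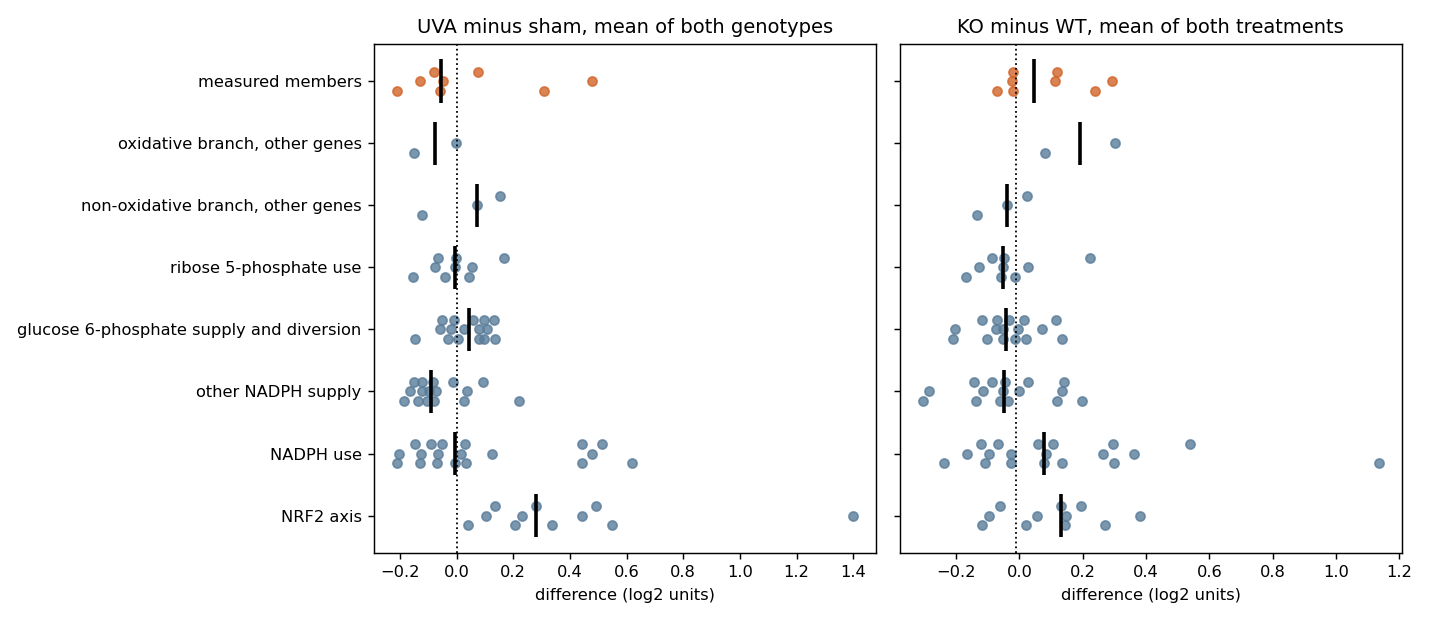
Differences of single genes in log2 units (horizontal axis) for the 8 measured members and the 7 lists, as UVA minus sham (left) and KO minus WT (right); each point is 1 gene, the bar its list's median and the dotted line the median of all genes tested. The points furthest right are Slc7a11 at 1.40 in the left panel and Nqo1 at 1.13 in the right.

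Likeness to Taldo1 was measured as the root mean square distance between log2 profiles over the 8 arrays, each gene centred on its own mean, among 12238 genes with a mean of at least 7 log2 units. The nearest was Gclm at 0.066, followed by Maoa, a monoamine oxidase (0.135), the cation channel gene Trpc1 (0.137), the kinase gene Plk2 (0.138) and the palmitoyltransferase gene Zdhhc18 (0.140). Pgd stood at rank 9, at 0.146. For Pgd, a likeness computed after its values were seen, the nearest were the nuclear receptor gene Ppard (0.057) and the ubiquitin-conjugating enzyme gene Cdc34 (0.063). Cybrd1, a ferric reductase (0.082), Gabarapl1, an ATG8 family member (0.084), and Impact, a regulator of translation (0.088), followed, and Taldo1 stood at rank 110. All these profiles share the 8 arrays and the difference between the numbers. Number 2 minus number 1 was 0.29 for Taldo1 and 0.39 for Gclm, and 0.07 for both Pgd and Ppard.

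**Figure D4:**
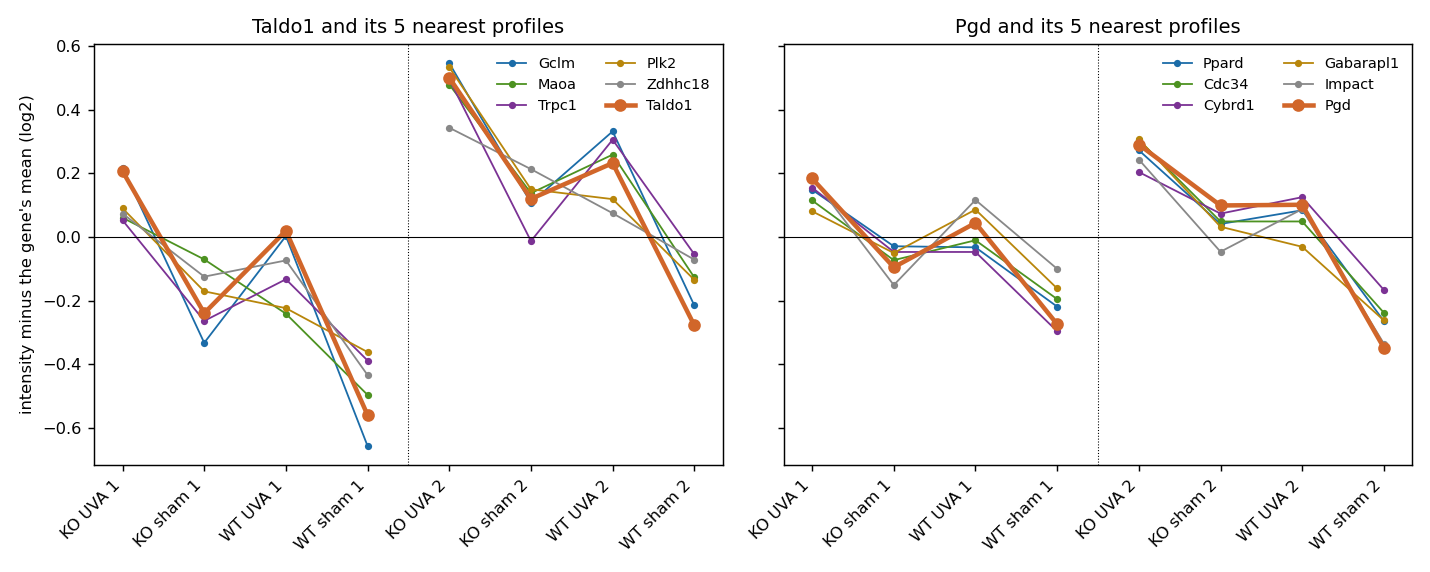
Intensity minus the gene's own mean (log2, vertical axis) on the 8 arrays, with number 1 left and number 2 right of the dotted line, for Taldo1 (left) and Pgd (right), drawn as thick lines, and the 5 genes with the nearest profiles. Gclm follows Taldo1 at a distance of 0.066, and Taldo1 and Pgd are lowest on the WT sham array of each number.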

How the data were processed

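RNA of 8 samples was hybridised to 1-colour Affymetrix whole-transcript arrays, and the sample titles give group and replicate number. The deposited intensity values are linear and whole, between 7 and 22585, made by the authors with robust multi-array averaging (RMA) in Affymetrix Expression Console 1.3.1.187, per the submitters' processing notes. The genome build of the array annotation is not given in the sources used here. Since the test plan assumed a log2 scale, the values were converted to log2 before testing. Rounding to whole numbers coarsens dim probe sets.

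Of 41345 probe sets, 23521 had 1 symbol in the platform annotation, 1814 several and 16010 none. A gene with several single-symbol probe sets was read from the one with the highest mean, which gave 22180 genes. Of these 21994 were found in the RefSeq table by Entrez identifier.

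All 8 arrays entered 1 fit on group means in limma 3.58.1 (R 4.3.3), with eBayes with a trend, two-sided tests in 7 comparisons and Benjamini-Hochberg adjustment over all genes at 0.05. There were 3 fits: without a block (4 residual degrees of freedom), blocked on the replicate number (3), and, for UVA and the interaction, blocked on genotype and replicate number (2). The last assumes that the sham and UVA arrays of a genotype and number belong together, which the labels do not say. Across the 6 pairs of groups, arrays of 1 number deviated together from their group means (r = 0.80 to 0.92), and the numbers were therefore treated as pairing. There are only 2 numbers. The labels call the arrays biological duplicates without naming cultures or animals, so p-values measure the spread between these samples. The fits were tested on simulated data, with changes larger than those of the members and a shift between numbers shared by all groups. Such data cannot show whether the arrays of a genotype and number belong together.

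The measured members are named, with every list gene that passed and the 2 highest and 2 lowest of each list by KO minus WT. The list of other oxidative branch genes is an exception, since only H6pd is named from it. The 5 genes nearest in profile are named for Taldo1. Of the set, 1 gene is not reported here. The members and lists were chosen with earlier results of these data known. Alternatives were a filter at a mean of 6 log2 units, centred arrays, the mean over all probe sets of a gene, no trend, averaged sham and UVA arrays, and leaving out each array.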

Additional observations from a re-analysis of the deposited data

Results flagged for a closer look

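Rpia was picked out because its UVA minus sham difference had opposite signs in the genotypes, positive in both KO pairs (0.04 and 0.21) and negative in both WT pairs (-0.24 and -0.19). The response in KO minus that in WT was 0.34 log2 units, with a 95% interval of 0.07 to 0.61 and an adjusted p of 1 in limma with genotype and replicate number as a block. The interval was -0.10 to 0.78 with the replicate number alone as a block and -0.55 to 1.23 without a block. Of all genes tested, 1653 (7.45%) showed such opposite signs in both numbers.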

How the results depend on the processing

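With 2 arrays a group, every value rests on few arrays and dim probe sets on rounded values. The number of genes called without a block was 0 in every comparison. With the replicate block it was 7 for KO vs WT averaged over treatments, 3 for UVA vs sham averaged over genotypes, 1 in WT and 2 in KO. With the genotype and replicate block it was 97, 12 in WT and 2 in KO. Without KO UVA replicate 1 or 2 the replicate block called 1 or 2 genes for UVA averaged over genotypes, and without any other array 0; the 7 genes also went to 0 without any array. The block changed the call of 2 members, Taldo1 and Pgd, and of no other member. The median over the measured members of KO minus WT was 0.0396 with arrays centred on their medians and -0.0018 with the mean over all probe sets of a gene, and after sham 0.0060 with the latter. Leaving out 1 array without a block lets the difference between the numbers into a comparison. The median of KO vs WT then ranged from 0.011 to 0.124 averaged over treatments, 0.056 to 0.200 after UVA and -0.018 to 0.161 after sham. The median of UVA vs sham in WT ranged from -0.078 to 0.027, and that of the interaction from -0.207 to 0.068. The KO vs WT difference averaged over treatments ranged from -0.17 to 0.14 for Idh1, -0.14 to 0.37 for Me1, -0.235 to 0.0941 for Nnt, -0.0884 to 0.0504 for Rpe and -0.18 to 0.13 for Rpia. UVA vs sham averaged over genotypes ranged from -0.28 to 0.03 for Idh1, -0.18 to 0.33 for Me1 and -0.20 to 0.11 for Rpia, and in KO from -0.18 to 0.43 for Rpia. The interaction of Taldo1 ranged from -0.311 to 0.0483, and from -0.181 to -0.0819 with the replicate block. With that block and 1 array left out, Me1 stayed at 0.106 to 0.132 for KO vs WT averaged over treatments. Its UVA vs sham difference averaged over genotypes stayed at 0.0617 to 0.0881. KO vs WT still changed sign for Idh1 (-0.121 to 0.0828), Nnt (-0.165 to 0.0237), Rpe (-0.0585 to 0.0205) and Rpia (-0.112 to 0.0654). The cause of these shifts was not tested. The other settings were judged against the fit without a block, in which 0 members were called. They kept the direction and the lack of a call in 295 results, which is no measure of how stable a call is. These include the fits by pairs without both arrays of 1 genotype and number, where the calls of Taldo1 and Pgd ended. The 3 that gained a call are those of Taldo1 (averaged and in WT) and Pgd.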
